A study of Homo sapiens with 4 samples.

Results

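The keratin and S100A genes were examined in TU-177 cells after knockdown of SKA3, a subunit of the spindle and kinetochore associated complex. The genes were chosen by name, as rows whose Ensembl identifier maps to a protein-coding symbol made of KRT, SPRR or S100A and a number. Of the 28729 genes in the table, 42 met this rule, namely 31 keratins and 11 S100A genes. GENCODE 29 lists 83 such symbols, and the other 41 were not analysed here. These 41 include all 11 SPRR genes, KRT19, KRT6B, KRT6C, S100A7, S100A8 and S100A9. Of the 42 genes, 19 had a mean of at least 1 FPKM and were tested, 22 had a lower mean, and KRT3 was at 0 in all libraries.

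TU-177 is an established line labelled as laryngeal squamous cell carcinoma (LSCC), grown in DMEM with fetal bovine serum. The negative control (NC) group was 2 libraries of cells carrying a lentiviral control shRNA, and the SKA3-KD group was 2 libraries of cells carrying a lentiviral shRNA against SKA3. Both groups received puromycin from 48 h after transduction, and total RNA came from the resistant cells. The model is therefore 1 line, and all values come from cells that survived selection. For TU-177 cells with a lentiviral shRNA in general, the methods name a week of puromycin, and whether this held for the sequenced cells is not stated in the sources used here. Sequences are listed for the shRNAs of a screen in another line, and no source says whether the sequenced cells carried the same ones. No source says whether libraries 1 and 2 came from separate cultures, so p-values measure only the spread between these libraries.

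Keratins are the intermediate filament proteins of epithelia, and each filament is built from an acidic type I and a basic type II chain. KRT8 pairs with KRT18 in simple epithelia, KRT5 pairs with KRT14 in the basal layer of squamous epithelia, and KRT6, KRT16 and KRT17 are induced in wounded or stressed squamous epithelium. S100A proteins are small EF-hand calcium sensors that bind partners such as annexins and non-muscle myosin, and most of their genes lie in a cluster on chromosome 1.

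SKA3, the targeted gene, was at 9.40 and 9.64 FPKM in NC and at 3.77 and 4.12 FPKM in SKA3-KD. FPKM counts fragments per kilobase of exon relative to library size. The SKA3 difference was -1.09 on the log2(FPKM + 1) scale with an SE of 0.07 (limma adjusted p = 0.00806). The library sizes behind the values were between 9015056 and 11966130 reads. For a transcript of 1 kb, 1 read was thus worth between 0.0836 and 0.111 FPKM. All differences below are SKA3-KD minus NC on the log2(FPKM + 1) scale, which understates the change of low genes, and p-values were adjusted over all 12645 genes tested. Values with ± are means and SDs of the 2 libraries of a group.

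The squamous label was checked against marker genes. Of 8 squamous markers, 7 were analysed, and TRIM29 was the only one above 1 FPKM, at 40.3 to 51.5 FPKM. KRT5 had 4 reads in NC 2 and none in the other 3 libraries, KRT14 had 1 read in NC 1, and KRT6A had 1 read in NC 2 and 1 in SKA3-KD 1. TP63, the master transcription factor of squamous epithelium, was between 0.348 and 0.580 FPKM. SOX2 reached 0.400 FPKM and the plakophilin PKP1 0.0942 FPKM. The keratins of simple epithelium were abundant instead, with KRT8 between 430 and 453 FPKM. Other epithelial markers were low, with the adhesion molecule EPCAM between 2.73 and 2.95 FPKM and the cadherin CDH1 between 0.149 and 0.447 FPKM. The low levels of KRT5, KRT14 and KRT6A go against a squamous keratin profile. The stress keratin KRT17 and the suprabasal keratins KRT10 and KRT80 were higher, between 29.4 and 70.6 FPKM. The cells are called TU-177 here. Leukocyte and endothelial markers were near 0, at sums of 0.235 to 0.495 FPKM over 6 genes and of 0.0825 to 0.193 FPKM over 3 genes. The sum of 6 fibroblast markers was 15.4 and 15.8 FPKM in NC and 8.86 and 9.56 FPKM in SKA3-KD. Most of that difference lay in DCN, the matrix proteoglycan decorin, at 8.40 and 8.36 FPKM in NC and 2.48 and 2.35 FPKM in SKA3-KD. COL1A1 was at 3.22 and 3.99 FPKM in NC and at 2.71 and 2.66 FPKM in SKA3-KD (limma adjusted p = 0.140). PDGFRB went the other way, from 2.88 and 2.46 FPKM in NC to 3.19 and 4.13 FPKM in SKA3-KD (limma adjusted p = 0.1655). COL3A1 and LUM were below 1 FPKM, and COL1A2 was at or near 0, in all libraries. The part of these cells or genes in the results below was not tested. In bulk RNA, fewer cells of a type and less RNA per cell cannot be told apart.

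Among the 19 keratin and S100A genes tested, 4 were lower in SKA3-KD and 3 were higher. The lower genes were S100A14, S100A4, S100A6 and KRT17, and the higher genes were KRT80, KRT18 and S100A10. Over all genes tested, 6.11% were lower and 6.16% were higher, against 21.1% and 15.8% of these 19 genes. The share called in either direction was 36.8% of the 19, beside 12.3% of all genes tested. Among more abundant genes a larger share was called. Of the 14 with a mean of at least 5 FPKM, 7 were called, beside 17.0% of all genes at that level. The NC and SKA3-KD libraries did not overlap for 15 of the 19 genes, or 78.9%, beside 61.6% of all genes tested. The median difference of the 19 genes was 0.03, and that of all genes tested was 0.01. The 7 calls thus ran in both directions around a median near 0. None of the 7 passed the threshold with any of the 4 libraries left out, and the adjusted p-values under those fits are given with each gene. None passed without the filter on level, and S100A4 and KRT80 alone passed without the mean-variance trend of limma.

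**Figure D1:**
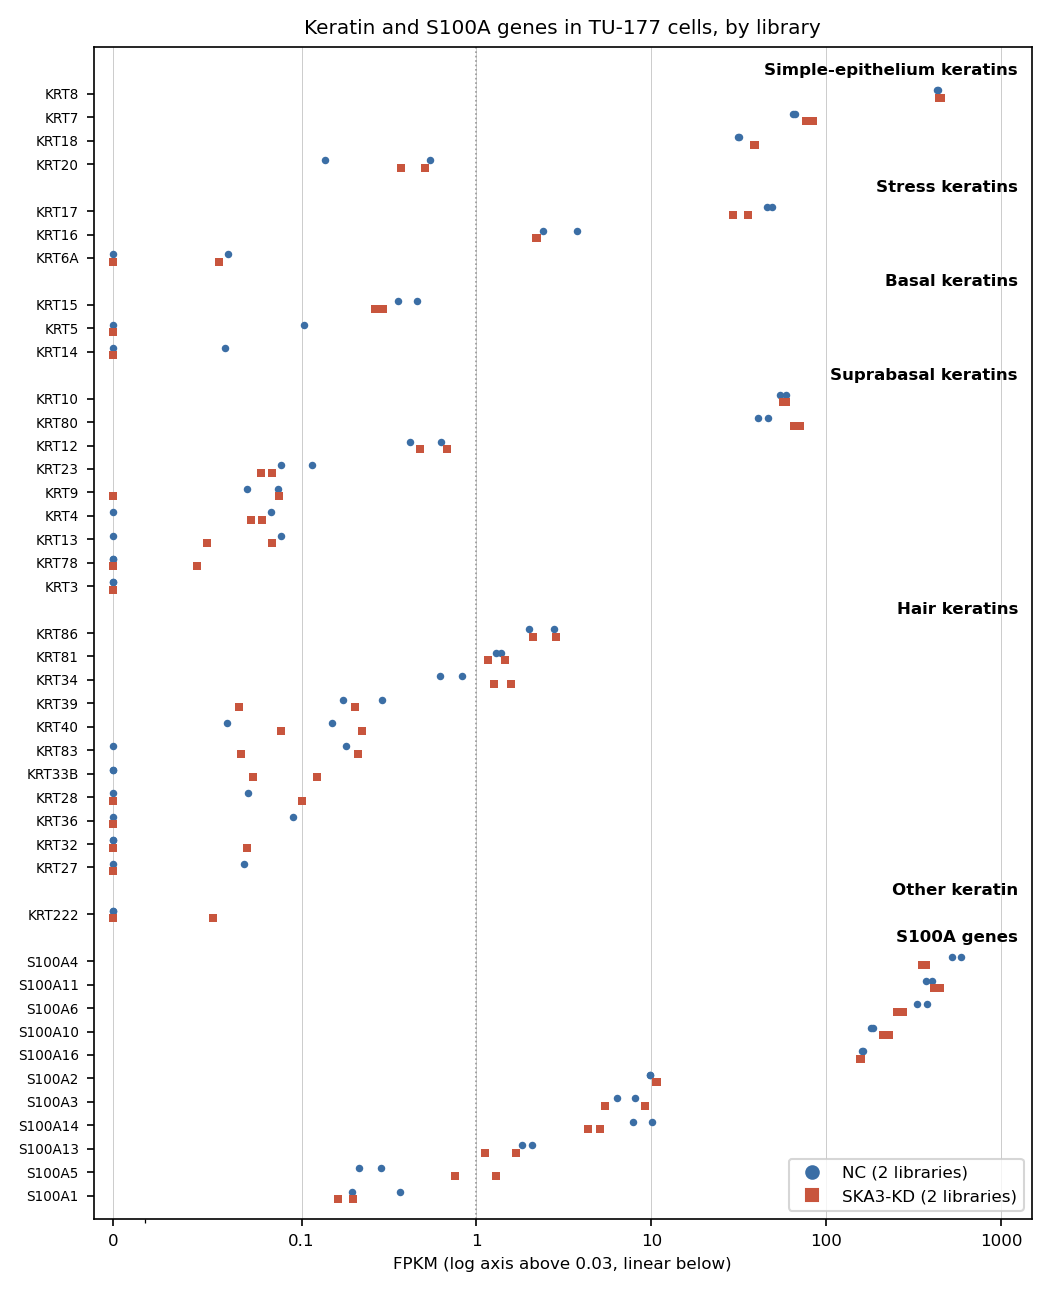
FPKM of the 42 keratin and S100A genes in each of the 4 libraries by gene group, on an axis that is logarithmic above 0.03 FPKM and linear below, with circles for NC, squares for SKA3-KD and a dotted line at 1 FPKM. S100A4, KRT8, S100A11 and S100A6 are the highest, at 253 FPKM or more in every library, and KRT5, KRT14 and KRT6A lie at or near 0.

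**Figure D2:**
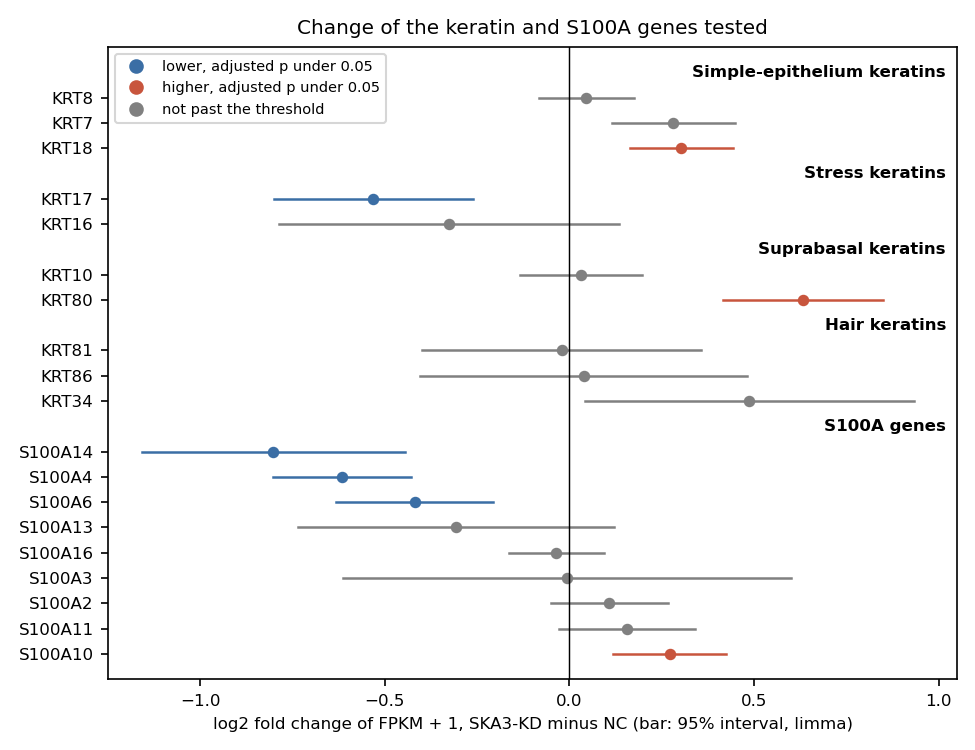
Difference of SKA3-KD minus NC on the log2(FPKM + 1) scale for the 19 genes tested, by group, with 95% intervals from limma. The 4 lower genes span from S100A14 at -0.80 to S100A6 at -0.42, and the 3 higher genes span from S100A10 at 0.27 to KRT80 at 0.63.

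The simple-epithelium keratins KRT8 and KRT7 were the most abundant keratins, and KRT18 of the same group was higher in SKA3-KD. KRT18, the type I partner of KRT8, was at 31.1 and 31.5 FPKM in NC and at 39.2 and 38.5 FPKM in SKA3-KD. Both SKA3-KD libraries were above both NC libraries. The means were 31.3 ± 0.261 and 38.9 ± 0.463 FPKM, a difference of 0.30 with an SE of 0.05 (limma adjusted p = 0.0332). With a library left out, the adjusted p of KRT18 in limma was between 0.0935 and 0.166. KRT8, the type II chain, was at 436 and 430 FPKM in NC and at 441 and 453 FPKM in SKA3-KD. The SKA3-KD values of KRT8 were again above the NC values, but the difference was 0.05 with a 95% interval of -0.08 to 0.17 (limma adjusted p = 0.581). The ratio of KRT8 to KRT18 was 13.8 ± 0.244 in NC and 11.5 ± 0.343 in SKA3-KD, without overlap. KRT7, a type II keratin of ductal and glandular epithelia, was at 64.7 and 66.5 FPKM in NC and at 76.6 and 83.4 FPKM in SKA3-KD. The groups did not overlap for KRT7 either. Its difference of 0.28 had a 95% interval of 0.11 to 0.45 and missed the threshold (limma adjusted p = 0.0544). It passed in limma voom on recovered reads (adjusted p = 0.00588) and when only genes of at least 5 FPKM were tested (adjusted p = 0.0255). KRT20, the intestinal type I keratin, had 3 and 9 reads in NC and 7 and 11 reads in SKA3-KD, at a mean of 0.389 FPKM. Over the 3 tested keratins of this group the median difference was 0.28.

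Exons of KRT8 and KRT18 overlap by 525 bases on opposite strands in GENCODE 29, those of KRT7 and its antisense gene KRT7-AS by 282 bases, and the use of strand in the counting is not stated. KRT7-AS itself was at 2.32 and 1.64 FPKM in NC and at 1.97 and 1.95 FPKM in SKA3-KD. KRT8 and KRT18 also have many processed pseudogenes that could take reads from them. The 19 KRT8 pseudogene rows held 154 and 115 reads in NC and 145 and 183 reads in SKA3-KD. That was between 0.590 and 0.685 reads per 100 reads of KRT8. The 17 KRT18 pseudogene rows held between 14 and 22 reads a library, beside 914 to 1463 reads of KRT18. The pseudogene rows thus held a small part of the reads, and reads shared with them remain uncertain.

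The basal keratins were almost absent. KRT15 was the highest of them, at 0.355 and 0.455 FPKM in NC and at 0.292 and 0.264 FPKM in SKA3-KD. These values rest on 30, 29, 21 and 22 reads, and KRT15 was below the level required for a test. The groups did not overlap, with the NC libraries above the SKA3-KD libraries. The 4 reads of KRT5 in NC 2 corresponded to 0.103 FPKM. Counts of 0 in the other libraries allowed up to 0.0584 FPKM in NC 1, 0.0687 FPKM in SKA3-KD 1 and 0.0593 FPKM in SKA3-KD 2, taking 3 reads as the limit. Such limits cover counting error only. A difference of KRT5 or KRT14 between the groups was not detectable at this depth.

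Among the stress keratins, KRT17 fell. KRT17, a type I keratin of wounded epithelium and of many carcinomas, was at 45.6 and 49.1 FPKM in NC and at 29.4 and 35.7 FPKM in SKA3-KD. Both SKA3-KD libraries lay below both NC libraries. The means were 47.3 ± 2.45 and 32.6 ± 4.43 FPKM, so SKA3-KD was at 0.688 of NC. The difference was -0.53 with an SE of 0.11 (limma adjusted p = 0.0396). With a library left out, the limma adjusted p of KRT17 was between 0.0596 and 0.133. KRT16, which pairs with KRT6 after wounding, was much lower, at 2.40 and 3.76 FPKM in NC and at 2.22 and 2.19 FPKM in SKA3-KD. Its groups did not overlap either, but NC 2 stood above the other 3 libraries and the difference of -0.33 did not pass (limma adjusted p = 0.283). Without NC 2 the difference of KRT16 was -0.08, and without NC 1 it was -0.57. The type II partner KRT6A was at 1 read or none in every library, and KRT6B and KRT6C were not analysed here. KRT16 and KRT17 together were 11.6 ± 0.898% of the KRT8 level in NC and 7.77 ± 0.847% in SKA3-KD. The 3 pseudogene rows of each gene held at most 1 read in a library.

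KRT80 had the largest difference of the 3 keratins past the threshold. KRT80 is a type II keratin found near desmosomes and cell margins in differentiating epithelia. It was at 40.7 and 46.3 FPKM in NC and at 65.3 and 70.6 FPKM in SKA3-KD. All SKA3-KD values were above the NC values, and the gap between the groups exceeded the spread within them. The means were 43.5 ± 3.96 and 67.9 ± 3.78 FPKM, a ratio of 1.56 and a difference of 0.63 with an SE of 0.09 (limma adjusted p = 0.0196). Without a library the limma adjusted p of KRT80 was between 0.0612 and 0.0822. KRT80 and KRT17 were at like levels in NC and moved apart. KRT80 over KRT17 was 0.893 and 0.945 in NC and 2.22 and 1.98 in SKA3-KD. The other suprabasal keratin tested was KRT10, the type I keratin of cornifying epidermis. KRT10 was at 58.5 and 54.6 FPKM in NC and at 59.2 and 56.3 FPKM in SKA3-KD. These groups overlapped, and the difference was 0.03 with a 95% interval of -0.13 to 0.20 (limma adjusted p = 0.783). KRT12, the keratin of the cornea, had between 7 and 15 reads a library at a mean of 0.549 FPKM. KRT4, KRT13 and KRT78, keratins of the mucosa and of differentiated epithelium, had at most 2 reads each. KRT9, the keratin of palms and soles, also had at most 2 reads.

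Hair and hair-follicle keratins were low. None of the 3 tested passed the threshold in limma, beside 12.3% of all genes tested. At an unadjusted p under 0.05, 1 of them was higher and none lower, beside 2046 and 1912 of all 12645 genes tested. Limma voom on recovered reads called none of the 3 either. KRT86, a type II hair cortex keratin, was the highest at 2.76 and 1.99 FPKM in NC and at 2.09 and 2.83 FPKM in SKA3-KD. The groups overlapped and the difference was 0.04 (limma adjusted p = 0.905). KRT81, a near relative of KRT86, was between 1.17 and 1.451 FPKM with overlapping groups (difference -0.02, limma adjusted p = 0.942). KRT34, a type I hair keratin, was at 0.620 and 0.824 FPKM in NC and at 1.57 and 1.26 FPKM in SKA3-KD. The groups did not overlap, on 13 reads in each NC library and 28 and 26 reads in SKA3-KD. Its difference of 0.49 had a 95% interval of 0.04 to 0.93 (limma adjusted p = 0.134). The median difference of the 3 was 0.04. KRT81 and KRT86 are close in sequence to each other and to KRT83, so reads split between them are uncertain. KRT39 and KRT40 had at most 5 reads in a library, and KRT83 at most 4.

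Summed over chains, type II keratins were at 545 and 546 FPKM in NC and at 587 and 611 FPKM in SKA3-KD. Type I keratins were at 140 and 142 FPKM in NC and at 133 and 136 FPKM in SKA3-KD. The ratio of type II to type I was 3.90 and 3.85 in NC and 4.40 and 4.49 in SKA3-KD. KRT8 alone made up between 60.6% and 63.6% of all keratin FPKM. The groups did not overlap for either sum or for the ratio. Each exact two-sided permutation test gave p = 0.333, the smallest value that 2 libraries against 2 allow. The sum of all keratins was 687 ± 1.97 FPKM in NC and 734 ± 19.0 FPKM in SKA3-KD. The SKA3-KD libraries, at 720 and 747 FPKM, lay further apart than the NC libraries, at 685 and 688 FPKM.

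**Figure D3:**
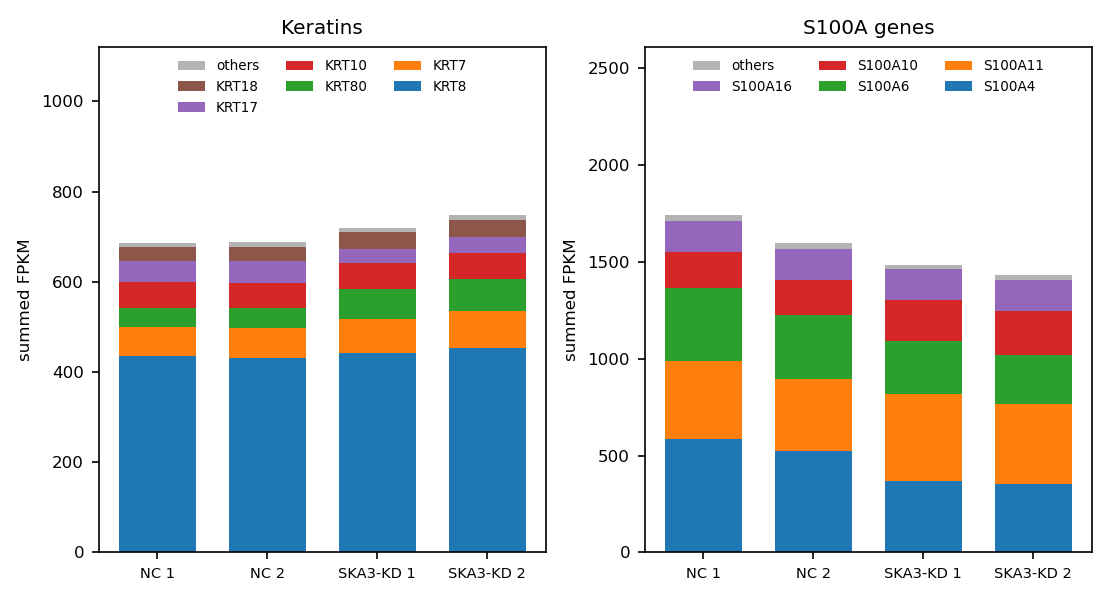
Summed FPKM of the keratins (left) and the S100A genes (right) in each library, as bars from 0 split by colour into the leading genes and all others. KRT8 takes over 60% of the keratin sum in all 4 libraries, and the S100A4 part shrinks from 33.7% and 32.9% of the S100A sum in NC to 24.9% and 24.7% in SKA3-KD.

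The S100A genes, 9 of the 19 genes tested, held 3 of the 4 lower calls and 1 of the 3 higher calls. The share called was 44.4% of these 9 and 30% of the 10 keratins tested, beside 12.3% of all genes tested. Of the 8 S100A genes with a mean of at least 5 FPKM, 4 were called, beside 17.0% of all genes at that level. S100A4, a motility-associated protein that binds the heavy chain of non-muscle myosin IIA, was the highest gene of all 42 in NC. It was at 587 and 525 FPKM in NC and at 370 and 353 FPKM in SKA3-KD. Both SKA3-KD libraries were far below both NC libraries. The means were 556 ± 43.8 and 362 ± 11.7 FPKM, so that SKA3-KD was at 0.651 of NC. The difference was -0.62 with an SE of 0.07 (limma adjusted p = 0.0152). With a library left out, the limma adjusted p of S100A4 was between 0.0612 and 0.0769. By mean FPKM, S100A4 ranked 45 in NC and 84 in SKA3-KD among all genes of the table. It ranked 1 of the 42 genes in NC and 3 in SKA3-KD, behind KRT8 and S100A11. In both groups S100A6, S100A10, S100A16 and KRT7 followed at ranks 4 to 7.

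S100A6, or calcyclin, which binds the ubiquitin-pathway protein CACYBP, was at 376 and 332 FPKM in NC and at 275 and 253 FPKM in SKA3-KD. The groups did not overlap. The means were 354 ± 30.8 and 264 ± 15.7 FPKM, a difference of -0.42 with an SE of 0.08 (limma adjusted p = 0.0394). The call was lost with quantile normalization (limma adjusted p = 0.0557) and with a library left out (adjusted p between 0.0755 and 0.149). S100A14, an S100 protein of epithelial cells, was at 10.1 and 7.82 FPKM in NC and at 5.08 and 4.32 FPKM in SKA3-KD. These values rest on 155, 90, 66 and 65 reads. Both SKA3-KD libraries were below both NC libraries, and NC 1 was above NC 2. The means were 8.98 ± 1.65 and 4.70 ± 0.539 FPKM, so that SKA3-KD was at 0.523 of NC. Its difference of -0.80 was the largest fall of the 19, with an SE of 0.14 (limma adjusted p = 0.0306). With a library left out, the limma adjusted p of S100A14 was between 0.0641 and 0.107.

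S100A10 was the S100A gene that rose. S100A10, also called p11, forms a complex with annexin A2 at the plasma membrane. It was at 185 and 179 FPKM in NC and at 212 and 227 FPKM in SKA3-KD, with no overlap. The means were 182 ± 3.88 and 220 ± 10.8 FPKM, a difference of 0.27 with an SE of 0.06 (limma adjusted p = 0.0496). The call of S100A10 lay near the threshold. It was lost with median-of-ratios scaling (limma adjusted p = 0.0518) and with a library left out (adjusted p between 0.129 and 0.225). ANXA2, the gene of annexin A2, also rose, from 136 and 128 FPKM in NC to 161 and 165 FPKM in SKA3-KD (difference 0.30, limma adjusted p = 0.0374). The ratio of S100A10 to ANXA2 was 1.35 and 1.40 in NC and 1.32 and 1.38 in SKA3-KD. The groups overlapped in this ratio (exact two-sided permutation p = 0.667).

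The other 5 S100A genes tested did not pass the threshold. S100A11, which binds annexin A1, was at 403 and 370 FPKM in NC and at 447 and 414 FPKM in SKA3-KD, without overlap. Its difference was 0.16 with a 95% interval of -0.03 to 0.34 (limma adjusted p = 0.213). S100A4 over S100A11 was 1.46 and 1.42 in NC and 0.827 and 0.855 in SKA3-KD, so that the order of the pair turned. S100A16 was between 156 and 162 FPKM with a difference of -0.04 and a 95% interval of -0.16 to 0.09 (limma adjusted p = 0.674). S100A2, a p63 target in keratinocytes, was at 9.87 and 9.77 FPKM in NC and at 10.6 and 10.7 FPKM in SKA3-KD (difference 0.11, limma adjusted p = 0.300). Its groups did not overlap, but the gap was small. S100A3, known from the hair cuticle, was between 5.45 and 9.23 FPKM, and its highest and lowest values were both in SKA3-KD. Its difference of -0.01 had a 95% interval of -0.61 to 0.60 (limma adjusted p = 0.988). S100A13, which takes part in release of growth factors without a signal peptide, was at 1.83 and 2.08 FPKM in NC and at 1.11 and 1.69 FPKM in SKA3-KD (difference -0.31, limma adjusted p = 0.277). Without SKA3-KD 1 the difference of S100A13 was -0.13, and without SKA3-KD 2 it was -0.48. Its exons overlap those of S100A1 on the opposite strand by 235 bases. Over the 9 S100A genes tested the median difference was -0.04.

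Below 1 FPKM, S100A5 had 2 reads in each NC library and 6 and 12 reads in SKA3-KD, at 0.213, 0.283, 0.752 and 1.298 FPKM. The groups of S100A5 did not overlap, on very few reads, and without a filter on level its limma adjusted p was 0.173. S100A1, an S100 protein of muscle, had between 5 and 10 reads a library. Of the 23 genes with a mean below 1 FPKM, 15 had a mean under 0.1 FPKM, with at most 4 reads and 0.122 FPKM in any library.

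The sum of S100A genes was 1739 and 1596 FPKM in NC and 1486 and 1431 FPKM in SKA3-KD. The groups did not overlap (exact two-sided permutation p = 0.333, the smallest possible). Within the sum, S100A6 took 21.6% and 20.8% in NC and 18.5% and 17.7% in SKA3-KD. S100A10 took 10.6% and 11.2% in NC and 14.3% and 15.9% in SKA3-KD. S100A11 took 23.2% in each NC library and 30.1% and 28.9% in SKA3-KD. The shares of S100A4 and S100A6 were thus smaller, and those of S100A10 and S100A11 larger, in both SKA3-KD libraries. Since these are shares of 1 sum, a fall of one raises the others.

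The S100A genes analysed lie on chromosome 1 in the order S100A10, S100A11, S100A6, S100A5, S100A4, S100A3, S100A2, S100A16, S100A14, S100A13 and S100A1. All but S100A1 are on the minus strand. S100A6 and S100A4, which both fell, have only the untested S100A5 between them. S100A3, S100A2 and S100A16 lie between S100A4 and S100A14 and did not pass. S100A10, the gene that rose, lies at one end.

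**Figure D4:**
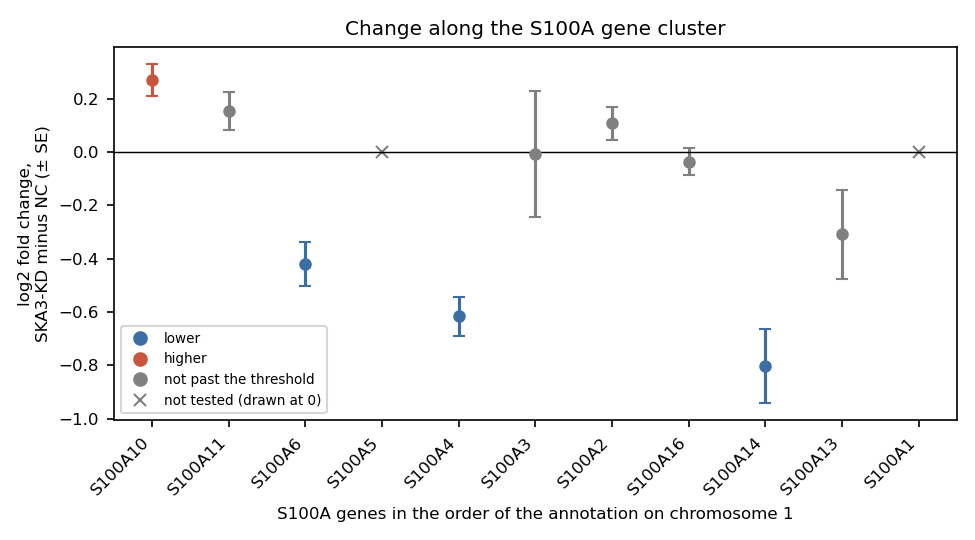
Difference of SKA3-KD minus NC on the log2(FPKM + 1) scale for the 9 S100A genes tested, in their order along chromosome 1 and not to scale in distance, with bars for ± SE from limma and crosses at 0 for the untested S100A5 and S100A1. The lower genes S100A6 (-0.42), S100A4 (-0.62) and S100A14 (-0.80) stand among genes not past the threshold, and S100A10 (0.27) at the left end is higher.

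Promoter sequences of RefSeq (GRCh38.p14), 250 bases before to 50 bases after the annotated start, were found for 27 of the 42 genes and for 12 of the 19 tested. They include 4 of the 7 genes past the threshold, all of them S100A genes, and are shown so that the lower and the higher genes can be compared. Each is printed from 5′ to 3′ on the minus strand, with capitals for any match on either strand to the TATA box TATAAA, the GC box GGGCGG, the AP-1 motif TGANTCA or the TEAD motif CATTCC.
S100A4 (lower), chr1:153545757-153546056: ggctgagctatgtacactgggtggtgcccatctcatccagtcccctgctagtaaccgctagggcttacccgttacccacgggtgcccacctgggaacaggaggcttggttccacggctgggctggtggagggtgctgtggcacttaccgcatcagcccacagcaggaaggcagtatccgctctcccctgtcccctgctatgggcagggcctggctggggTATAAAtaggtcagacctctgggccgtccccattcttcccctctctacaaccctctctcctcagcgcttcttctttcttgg
S100A6 (lower), chr1:153535942-153536241: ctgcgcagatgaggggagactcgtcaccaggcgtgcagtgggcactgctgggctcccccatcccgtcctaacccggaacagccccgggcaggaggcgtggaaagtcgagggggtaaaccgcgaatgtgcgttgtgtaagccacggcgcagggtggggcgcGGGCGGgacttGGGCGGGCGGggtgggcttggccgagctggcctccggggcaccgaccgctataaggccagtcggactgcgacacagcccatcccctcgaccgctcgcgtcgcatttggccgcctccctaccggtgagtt
S100A14 (lower), chr1:153616276-153616575: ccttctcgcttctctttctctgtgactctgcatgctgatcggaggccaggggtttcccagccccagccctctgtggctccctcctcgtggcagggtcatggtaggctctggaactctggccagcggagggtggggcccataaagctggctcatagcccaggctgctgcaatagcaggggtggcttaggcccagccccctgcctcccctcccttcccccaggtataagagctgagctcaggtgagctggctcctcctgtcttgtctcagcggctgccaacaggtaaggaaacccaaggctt
S100A10 (higher), chr1:151993810-151994109: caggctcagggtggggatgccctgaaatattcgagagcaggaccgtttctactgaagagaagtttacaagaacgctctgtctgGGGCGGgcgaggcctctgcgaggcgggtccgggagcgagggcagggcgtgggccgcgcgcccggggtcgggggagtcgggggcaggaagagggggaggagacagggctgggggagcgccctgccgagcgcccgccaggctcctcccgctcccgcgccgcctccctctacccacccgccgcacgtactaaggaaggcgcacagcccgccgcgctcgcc

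The S100A4 promoter held 1 TATA box, beginning at position -31 from the start, and no other searched motif. The S100A6 promoter held 3 GC boxes, beginning at -90, -79 and -75, the last pair overlapping. The S100A10 promoter held 1 GC box at -167, and the S100A14 promoter held none of the motifs. The GC content was 60.7% for S100A4, 69.3% for S100A6, 62.0% for S100A14 and 71.7% for S100A10, beside a median of 58.7% over all promoters. No searched motif, matched letter for letter, was shared by the 3 lower genes. The S100A6 and S100A14 promoters do hold the letters TATAAG, which the exact search for TATAAA did not count. Among the 12 tested genes with a promoter, the TATA box was in 3 (KRT10, KRT34 and S100A4), beside 11.5% of 35116 promoters. The GC box was in 5 of the 12, beside 45% of all promoters. The AP-1 motif was in S100A2 and S100A3, beside 7.7% of all, and the TEAD motif in KRT8 and S100A16, beside 14% of all. A match is a description of the letters in this window only.

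Genes that work with S100 proteins, together with S100 genes not named S100A, were examined as a list of 17, of which 13 were tested. Of these, 4 were higher and 1 was lower, or 38.5% called beside 12.3% of all genes tested, and the median difference was 0.13. Of the 10 with a mean of at least 5 FPKM, 5 were called, beside 17.0% of all genes at that level. MYH9, the heavy chain of non-muscle myosin IIA and a partner of S100A4, was at 90.6 ± 6.19 FPKM in NC and at 143 ± 9.20 FPKM in SKA3-KD, without overlap (difference 0.65, limma adjusted p = 0.0153). S100A4 and MYH9 thus moved in opposite directions. EZR, the membrane linker ezrin, rose by 0.42 (limma adjusted p = 0.0183), and AHNAK, a giant scaffold that binds S100A10 with annexin A2, rose by 0.47 (limma adjusted p = 0.0149). S100P, an S100 gene outside the S100A cluster, was at 54.5 and 51.3 FPKM in NC and at 29.9 and 25.8 FPKM in SKA3-KD. Its groups were far apart, with a difference of -0.90 (limma adjusted p = 0.0115).

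Genes of the cornified envelope and late squamous differentiation were examined in place of the SPRR genes. Of 55 symbols listed, 25 were analysed and 11 were tested, with 1 lower, 1 higher and a median difference of -0.03. The share called was 18.2%, beside 12.3% of all genes tested. Of the 8 with a mean of at least 5 FPKM, 2 were called, beside 17.0% of all genes at that level. EMP1, an epithelial membrane protein, was at 7.24 and 6.39 FPKM in NC and at 17.5 and 15.2 FPKM in SKA3-KD (difference 1.15, limma adjusted p = 0.0102). CLIC3, an intracellular chloride channel protein, was at 30.7 and 32.8 FPKM in NC and at 19.9 and 20.9 FPKM in SKA3-KD (difference -0.61, limma adjusted p = 0.0136). The remaining 9 did not pass. The envelope scaffold genes EVPL and PPL were at 0.46 and 0.12 (limma adjusted p = 0.0526 and 0.209), so EVPL missed narrowly. The crosslinking enzyme TGM1 was at 0.50 (limma adjusted p = 0.0777). ECM1 and CNFN went the other way, at -0.35 and -0.84 (limma adjusted p = 0.0801 and 0.138). Of the 11 differences, 6 were negative and 5 positive. At an unadjusted p under 0.05, 4 of the 11 were lower and 3 higher, beside 1912 and 2046 of all 12645 genes tested. The groups did not overlap for 10 of the 11, or 90.9%, beside 61.6% of all genes tested. Neither called gene is a structural protein of the envelope.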

How the data were processed

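RNA of TU-177 cells was sequenced in 4 libraries, 2 of NC and 2 of SKA3-KD, grouped by their labels. The authors deposited FPKM values for 28729 genes. The submitters' processing notes name Bowtie2 2.2.8, HISAT2, StringTie 1.3.1, Cuffdiff 2.1.1 and hg19, without role or order. Strand use in counting is not stated. Symbols and exon lengths came from GENCODE 29 (27199 genes matched), and promoters from RefSeq (GRCh38.p14).

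FPKM steps gave library sizes of 11966130 and 9015056 reads (NC 1, NC 2) and 10177854 and 11793604 reads (SKA3-KD 1, SKA3-KD 2). Whole reads were assigned to 12638 of the genes tested, or 99.9%. For 7765 of these the exon length gave them directly (tolerance 0.02), and for the others the proportions between libraries did. Recovered reads exceeded the library size in every library, with 12469152 in NC 1, so some counts may be too high. For KRT8, KRT10, KRT12, KRT17 and S100A13 the reads were the smallest whole numbers in the proportions between libraries, so a common factor is uncertain. Replicates differed by more than sampling noise (chi-square per degree of freedom 3.71 in NC and 3.65 in SKA3-KD) and were kept apart.

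SKA3-KD was compared with NC by limma 3.58.1 in R 4.3.3 (lmFit, eBayes with a mean-variance trend, two-sided) on log2(FPKM + 1) over 12645 genes with a mean of at least 1 FPKM, with Benjamini-Hochberg adjustment and a threshold of 0.05. Sums and ratios had exact permutation tests. The steps were tested on simulated data. Other settings were tried for the pseudocount (0.1), the filter (none, or at least 5 FPKM), the scaling (median-of-ratios or quantile), the trend (none), a replicate block, voom on recovered reads, and each library left out. Genes with a mean of at least 1 FPKM were all named. Those below were named if their mean was at least 0.1 FPKM, and the few others named below this were chosen after their values were seen. The genes and lists were chosen with earlier results of these data known. Other steps ran in Python 3.11.15 (pandas 2.3.3, numpy 2.4.6, scipy 1.17.1) and figures were drawn in matplotlib 3.10.9.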

Additional observations from a re-analysis of the deposited data

How the results depend on the processing

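With 2 libraries a group, calls rested on spread shared across genes. Among the keratin and S100A genes, 4 were lower and 3 higher. Limma called 0 and 0 without a filter (81 and 48 over all genes). In that fit 4 and 6 had an unadjusted p under 0.05, beside 2335 and 2442 of the 26504 genes above 0. Voom with the filter called 4 and 4. Without a mean-variance trend the counts were 1 and 1 (381 and 312 over all genes), and voom on recovered reads gave 1658 and 1609 over all genes. Leaving out each library in turn gave 0 keratin and S100A genes in either direction (limma), with 4 to 5 lower and 2 to 5 higher at an unadjusted p under 0.05. Over all genes these fits gave from 0 (without NC 1 or NC 2) to 135 lower and from 0 to 46 higher. SKA3 missed the threshold only without NC 1 or NC 2, with differences of -1.11 and -1.07. With each library left out, SKA3 ranged from -1.14 to -1.04, the median difference from 0.22 to 0.30 for simple-epithelium keratins, from -0.11 to 0.20 for hair keratins and from -0.34 to -0.029 for S100A genes, and the log2 ratio of summed type II keratins from 0.10 to 0.16. The replicate block gave 4 lower and 5 higher, adding KRT7 and S100A11 (limma adjusted p = 0.0364 and 0.0419). The numbers were not taken as pairs, since the correlation of replicate differences was 0.0973 and no label ties them. S100A11 also passed with quantile normalization (limma adjusted p = 0.0449). S100A4 and KRT80 missed the threshold among the fits of all 4 libraries only without a filter (limma adjusted p = 0.0813 and 0.0695). Fewer calls were made over all genes with a library left out and without a filter. The cause of these and the other changes was not tested.

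Uncalled genes near 0 changed sign. S100A16 and KRT81 were at 0.0043 and 0.0036 with quantile normalization. S100A3 was at 0.025 with voom. With each library left out, KRT81 ranged from -0.11 to 0.067, KRT10 from -0.018 to 0.0796, KRT86 from -0.13 to 0.20 and S100A3 from -0.34 to 0.33. No called gene changed sign.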

Other observations

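Other intermediate filaments were examined as a list of 13, of which 11 were analysed and 7 tested. None passed the threshold in limma, beside 12.3% of all genes tested. At an unadjusted p under 0.05, 1 was lower and 1 higher, beside 1912 and 2046 of all 12645 genes tested. The lamin gene LMNA was at 137 and 146 FPKM in NC and at 150 and 161 FPKM in SKA3-KD (difference 0.13, limma adjusted p = 0.234). LMNB1 was at 61.5 and 57.4 FPKM in NC and at 67.4 and 69.1 FPKM in SKA3-KD (difference 0.20, limma adjusted p = 0.101). VIM, the mesenchymal filament vimentin, was at 49.0 and 44.2 FPKM in NC and at 39.9 and 40.5 FPKM in SKA3-KD, without overlap (difference -0.21, limma adjusted p = 0.122).

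Of 9 genes that tie keratins to junctions and other structures, 6 were tested. None of the 6 passed the threshold in limma, beside 12.3% of all genes tested. Of these 6, 1 was higher and none lower at an unadjusted p under 0.05, beside 2046 and 1912 of all 12645 genes tested. DSP, the desmosomal plaque protein desmoplakin, was between 65.8 and 68.7 FPKM (difference 0.02, limma adjusted p = 0.869). PLEC, the cytolinker plectin, was between 44.3 and 52.1 FPKM with overlapping groups (difference -0.05, limma adjusted p = 0.777).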
